A study of Mus musculus with 14 samples.

Results

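Pyruvate oxidation and the citric acid cycle were followed through 32 genes, chosen by name for their place in the pathway. No measured value set the list, but earlier results of these data were known when the genes were chosen. They cover the mitochondrial pyruvate carrier, the pyruvate dehydrogenase complex with its kinases and phosphatases, enzymes of the cycle, NADP-linked dehydrogenases, pyruvate carboxylase, and the glutamate and aspartate enzymes linked to the cycle. Of these, 31 had at least 1 annotated probe set, out of 18193 genes on the array with a probe set annotated to 1 gene. Mpc2, which encodes a subunit of the pyruvate carrier, was not analysed here. RNA was measured on 14 Affymetrix Mouse Genome 430 2.0 arrays, 1 sample to an array. Brain tissue, as the sample titles call it without naming a region, came from wild-type mice (4 arrays) and PWS-IC del mice (3 arrays). PWS-IC del is a deletion of the Prader-Willi syndrome imprinting center. The vastus lateralis, a muscle of the thigh, came from wild-type mice (4 arrays) and PWS-IC del mice (3 arrays). All mice were F1 offspring of a cross between the FVB and B6 strains, and the wild-type mice were littermates of the same age as the mutants. The labels do not give the age, the sex, the parent that passed on the deletion, or whether brain and muscle of one number came from one mouse. Replicates are biological replicas per the sample titles, and the p-values below measure the spread between these samples alone.

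Pyruvate from glycolysis enters mitochondria through the carrier and is turned into acetyl-CoA by the pyruvate dehydrogenase complex. Pyruvate dehydrogenase kinases switch the complex off by phosphorylation, and phosphatases switch it on again. The cycle then oxidises the acetyl group and passes electrons to the respiratory chain, which is the main source of ATP in neurons and in oxidative muscle fibres, and its intermediates are shared with glutamate and aspartate in brain and muscle. An imprinting center controls which parent's copies of nearby genes are active, and its deletion on the paternal copy silences the paternally expressed genes of the Prader-Willi region.

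The labels were checked first. Snrpn, a gene of that region, read 10.29 to 10.64 in wild-type brain and 5.03 to 6.48 in PWS-IC del brain, on the log2(intensity + 16) scale used throughout. In muscle it read 7.07 to 7.16 in wild-type and 6.37 to 6.97 in PWS-IC del samples. Every mutant array was below every wild-type array of its tissue. The median intensity per array was 142.07 to 170.06 in brain and 88.8 to 96.4 in muscle, and the number of arrays limits the precision. The neuronal gene Syt1 read 13.26 to 13.58 in all 7 brain arrays, and Ckm, muscle creatine kinase, read 13.68 to 13.88 in all 7 muscle arrays. Some brain arrays stood apart. The summed intensity of 7 skeletal muscle genes was 9263 in wild-type brain 1 and 5814 in wild-type brain 3, against 715 to 1074 in the other brain arrays. Wild-type brain 1 and 2 had the highest sums of 7 striatal genes, 22933 and 15126, and the lowest of 5 choroid plexus genes, 4044 and 4204. Pcp2, a cerebellar Purkinje cell gene, read 16.76 in PWS-IC del brain 2 and 13.03 in wild-type brain 3, and 8.20 to 8.79 in the other brain arrays. In muscle, Snap25, a neuronal gene, was highest in wild-type 2, at 9.23.

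Most members differed between the tissues. In wild-type mice 25 of the 31 members passed the threshold between muscle and brain, an adjusted p under 0.05 by limma with Benjamini-Hochberg adjustment over all 14952 genes tested. Of them, 22 were higher in muscle and 3 were lower, among the latter Pdk3, which was too dim in muscle to be tested there. Over all genes 82.3% passed, 22.8% higher and 59.5% lower in muscle. The median difference of the members was 0.67 log2 units (muscle minus brain), beside -0.52 over all genes tested. Since the sources do not say how arrays of the tissues were brought to one scale, the tissue differences depend on that scale. With quantile normalization 22 members were higher and 2 lower, with a member median of 0.98 and an all-gene median of 0.18. With each array centred on its median, 25 members were higher and 1, Pdk3, was lower, with medians of 1.35 and 0.15. The split of all genes moved from 3403 higher and 8899 lower to 6891 and 5313 with quantile normalization, and to 6695 and 5271 with centring. In bulk tissue, fewer cells of a type and less RNA per cell cannot be told apart.

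**Figure D1:**
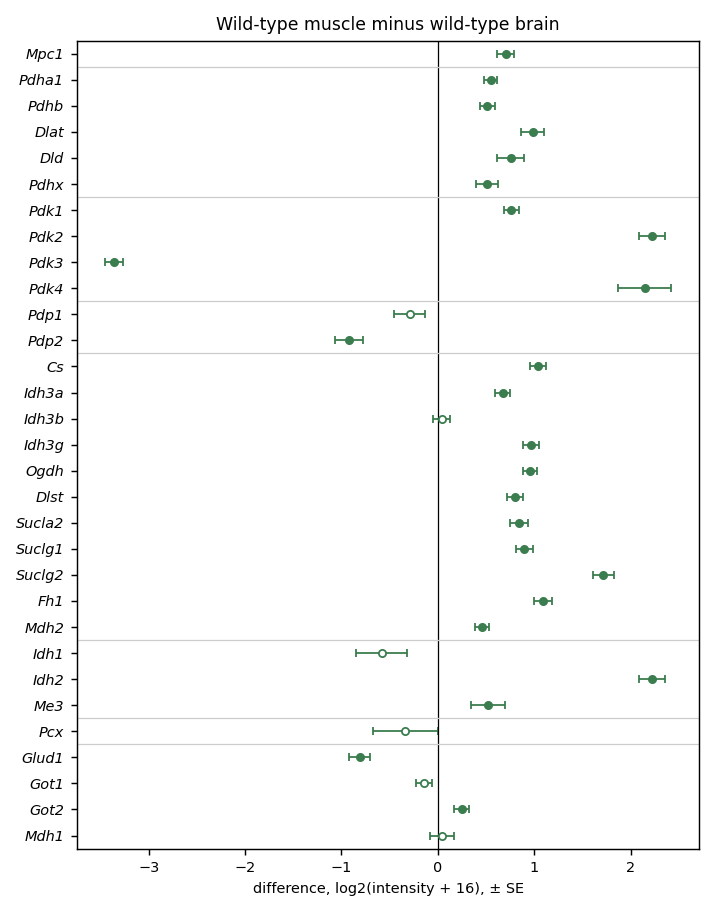
Difference between wild-type muscle and wild-type brain for each of 31 members, in log2(intensity + 16) units with SE, in the order carrier, dehydrogenase complex, kinases, phosphatases, cycle enzymes, NADP-linked dehydrogenases, pyruvate carboxylase, and glutamate and aspartate enzymes. Filled points passed an adjusted p of 0.05: 22 members lie to the right of 0 and 3 (Pdk3, Pdp2 and Glud1) to the left. Pdk3 entered the comparison through its brain values alone, so its point is a description.

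The kinases of pyruvate dehydrogenase were divided between the tissues. Pdk3 read 9.15, 9.19, 9.03 and 9.29 in wild-type brain and 5.64, 5.76, 5.91 and 5.91 in wild-type muscle. Its muscle values lay under the level required for testing within muscle, and it entered the comparison of tissues through its brain values alone. The difference of -3.36 is therefore a description, with the size uncertain at the dim end. Pdk2 read 9.64, 9.99, 10.20 and 10.21 in wild-type brain and 12.16, 12.12, 12.40 and 12.26 in wild-type muscle. Its levels in the tissues lay far apart, with a difference of 2.22 (SE 0.14, limma adjusted p = 1.2e-09). Pdk4, the kinase known to be induced by fasting and fat use, read 7.87, 7.99, 8.37 and 8.56 in wild-type brain and 10.66, 9.50, 11.13 and 10.08 in wild-type muscle. Its difference was 2.15 (SE 0.27, limma adjusted p = 4.4e-06), and the muscle arrays were spread over a wider range than the brain arrays. Pdk1 was higher in muscle by 0.76. The phosphatase Pdp2 was lower in muscle by the deposited values, with a difference of -0.92 (limma adjusted p = 4.0e-05), but missed the threshold at -0.28 with quantile normalization and at -0.24 with centring. The other phosphatase, Pdp1, differed by -0.29 and did not pass.

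All 5 members of the dehydrogenase complex were higher in wild-type muscle by their brightest probe sets. The E1 subunits Pdha1 and Pdhb differed by 0.55 and 0.51, the E2 acetyltransferase Dlat by 0.98, the E3 dehydrogenase Dld by 0.76, and Pdhx, which binds E3 to the core, by 0.51. Dld missed the threshold, at 0.04, with the mean of its probe sets, of which the second is dim and lower in muscle. Mpc1, the measured carrier subunit, differed by 0.70. Of the 11 cycle enzymes, 10 were higher in muscle. Suclg2, the GTP-forming subunit of succinyl-CoA ligase, differed by 1.72 (SE 0.11, limma adjusted p = 2.2e-09). Sucla2, its ATP-forming counterpart, differed by 0.84 by its brightest probe set and by -1.02 by its most variable one. The latter was dim, at 6.69 in wild-type brain and 5.67 in wild-type muscle, and was not tested within muscle. Fh1, fumarase, and Cs, citrate synthase, the entry enzyme, differed by 1.09 (SE 0.09) and 1.04 (SE 0.08). The enzyme that did not pass was Idh3b, a subunit of the NAD-linked isocitrate dehydrogenase, at 0.04 by its brightest probe set. The other subunits of that enzyme, Idh3a and Idh3g, differed by 0.67 and 0.97. A further Idh3b probe set averaged 11.8 ± 0.11 (SD, n = 4) in wild-type brain and 8.91 ± 0.44 (SD, n = 4) in wild-type muscle. The remaining Idh3b probe set went the other way, at 7.85 ± 0.34 (SD, n = 4) in wild-type brain and 9.31 ± 0.05 (SD, n = 4) in wild-type muscle. The probe sets of Idh3b thus gave unlike tissue patterns.

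The NADP-linked and anaplerotic members did not share one tissue pattern. Idh2, the mitochondrial NADP-linked isocitrate dehydrogenase, was higher in muscle by 2.23 (SE 0.14, limma adjusted p = 1.2e-09), level with Pdk2 within the SE, and by 1.19 with the mean of its bright and its dim probe set. Its cytosolic counterpart Idh1 differed by -0.58 and did not pass (limma adjusted p = 0.053). Me3, a mitochondrial malic enzyme, was higher in muscle by 0.52. Pcx, pyruvate carboxylase, which makes oxaloacetate from pyruvate, differed by -0.34 and did not pass. Glud1, glutamate dehydrogenase, was lower in muscle at -0.81 (SE 0.11), and missed the threshold at -0.14 with median centring. Of the enzymes of the malate-aspartate shuttle, the mitochondrial Mdh2 and Got2 were higher in muscle by 0.46 and 0.25. The cytosolic Mdh1 and Got1 differed by 0.04 and -0.15 and did not pass. Across the alternative settings 18 of the 25 calls were made every time, and Dlst, Sucla2, Pdk1 and Got2 changed sign under another rule for choosing the probe set. The most variable probe sets of these members were dimmer than the brightest. In wild-type brain they averaged 8.14, 6.69, 6.77 and 7.34, beside 10.64, 11.99, 10.16 and 12.71 for the brightest. Of the 6 members that did not pass, Idh1, Idh3b, Mdh1, Got1 and Pdp1 passed under at least 1 setting. With centring Idh3b and Mdh1 were each higher in muscle by 0.72 and Got1 by 0.53, and with the mean of probe sets Mdh1 and Idh3b were lower, at -0.23 and -0.47.

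In PWS-IC del mice 26 of 31 members passed between the tissues (79% of all genes), 21 higher (21.1%) and 5 lower (57.9%) in muscle, and the median difference of the members was 0.53. Idh2 differed by 1.38 (SE 0.16), Pdk2 by 1.91 and Pdk4 by 1.49. Pdk3, counted among the lower and dim in these muscle samples too, read 5.77 to 5.95 there and 9.07 to 9.28 in brain. It entered this comparison through its brain values alone, so its difference is a description. Pdp1 and Got1, which had not passed in wild-type mice, were lower in PWS-IC del muscle at -0.80 and -0.29 by the deposited values. Pdp1 missed the threshold with quantile normalization (-0.23) and centring (-0.16), and with centring Got1 was higher in muscle, at 0.34. Pdp2 also missed it with quantile normalization (-0.09) and centring (-0.05), and Glud1 with centring (-0.14). Of the 5 members called lower, Pdk3 alone still passed as lower with centring. Across the alternative settings 15 of the 26 calls were made every time. Each of these values was computed within 1 genotype, and the test of whether the tissue difference itself depended on genotype is given further on.

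No member passed the test between genotypes in brain. The count was 0 of 31 members, and 9 of 13645 genes (0.066%), by limma. At an unadjusted p under 0.05 the count was 0 of 31, where 8.2% of all genes fell under that value. The members' adjusted p-values ran from 0.556 to 0.961, and their differences from -0.08 for Pdp2 to 0.37 for Pdk4. The difference was above 0 in 27 of 31 members, beside 61.9% of all genes, with a median of 0.11 beside 0.06. Idh2 alone of the 31 had groups that did not overlap, where 8.66% of all genes had such groups.

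Among the kinases, Pdk4 read 8.64, 8.59 and 8.48 in PWS-IC del brain, beside the wild-type values given above. The mutant arrays lay at the upper end of the wild-type range and overlapped it through wild-type 4. The difference was 0.37 (SE 0.17, limma adjusted p = 0.556), with a 95% interval of -0.01 to 0.76. Pdk2 read 10.28, 10.61 and 10.12 in PWS-IC del brain, inside or above the wild-type range. Its difference was 0.32 (SE 0.17, limma adjusted p = 0.566), with an interval of -0.07 to 0.72. Pdk1 and Pdk3 differed by 0.14 and 0.03.

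In the dehydrogenase complex, Dld read 11.37, 11.31 and 11.15 in PWS-IC del brain and 10.71, 10.56, 11.14 and 11.34 in wild-type brain. Wild-type 1 and 2 were low, and wild-type 3 and 4 lay with the mutants. The difference was 0.34 (SE 0.19, limma adjusted p = 0.566). Pdhx read 10.32, 10.34 and 10.27 in PWS-IC del brain and 9.69, 10.05, 10.17 and 10.34 in wild-type brain, with wild-type 1 the lowest. It differed by 0.25 (SE 0.15, limma adjusted p = 0.577). Pdha1, the catalytic subunit that the kinases phosphorylate, read 12.48, 12.48 and 12.37 in PWS-IC del brain and 12.44, 12.55, 12.43 and 12.48 in wild-type brain. Its groups were interleaved, and the interval of its difference was -0.24 to 0.18.

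Among cycle enzymes, Fh1 read 11.67, 11.78 and 11.54 in PWS-IC del brain and 11.25, 11.39, 11.51 and 11.65 in wild-type brain. The mutants were higher on the whole but overlapped wild-type 4, and the difference was 0.21 (SE 0.12, limma adjusted p = 0.569). Cs read 12.06, 12.28 and 12.10 in PWS-IC del brain and 11.90, 12.16, 12.16 and 12.16 in wild-type brain. Wild-type 1 stood below the rest, and the difference of 0.05 had an interval of -0.20 to 0.30. Ogdh, the first subunit of 2-oxoglutarate dehydrogenase, read 11.38, 11.50 and 11.33 in PWS-IC del brain and 11.37, 11.51, 11.48 and 11.46 in wild-type brain. These values overlapped fully, and the interval was -0.27 to 0.16. Idh2 read 10.05, 9.91 and 9.98 in PWS-IC del brain and 9.67, 9.72, 9.91 and 9.90 in wild-type brain. The lowest mutant array lay just above the highest wild-type array, with a difference of 0.18 (SE 0.10, limma adjusted p = 0.568).

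The same wild-type arrays were low for many members. For each member, an array was compared with the mean over the 7 arrays of its tissue, and the median of these deviations over the 31 members was -0.18, -0.07, 0.02 and 0.08 in wild-type brain 1 to 4. It was 0.06, 0.15 and -0.03 in PWS-IC del brain 1 to 3. The number of the 31 members above the tissue mean was 3, 11, 19 and 25 in wild-type brain 1 to 4. In PWS-IC del brain 1 to 3 it was 27, 25 and 10. Over all genes tested the same medians ran from -0.09 in wild-type brain 1 to 0.09 in PWS-IC del brain 2. Without wild-type brain 1 and 2, the arrays with the most striatal signal, the median difference of the members was 0.01 and 20 of 31 were above 0, beside 58.2% of all genes. Without wild-type brain 1 alone the median was 0.06, and Pdk4 and Dld each differed by 0.26. With all arrays, quantile normalization gave a median of 0.06 with 23 members above 0 (55.3% of all genes), and centring gave 0.18 with 30 (75.1%) while moving the median of all genes to 0.13. Summed marker levels of other cell types also varied between the brain arrays. The summed intensity of 6 astrocyte genes, all measured and none listed at 0, was 22449, 23636, 30716 and 29790 in wild-type brain 1 to 4 and 29901, 32027 and 24995 in PWS-IC del brain 1 to 3. It was lowest in wild-type 1 and 2, then in mutant 3, and highest in mutant 2. All 6 astrocyte genes and all 8 macrophage or microglia genes tested were higher in the mutants, beside 61.9% of all genes. All 7 cerebellar and all 5 choroid plexus genes tested were higher too. In contrast, 0 of 7 endothelial, 0 of 7 striatal and 0 of 7 skeletal muscle genes tested were higher. In each of these lists 0 genes passed. The macrophage or microglia sum was 7725 to 10366 in wild-type and 10053 to 10366 in PWS-IC del brain. The part of tissue composition in these values was not tested.

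**Figure D2:**
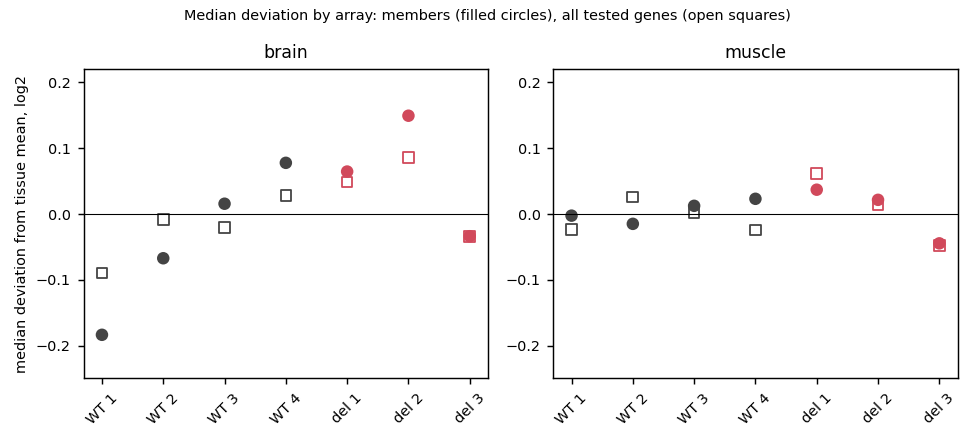
Median deviation from the tissue mean, in log2 units, for each array (WT, wild-type; del, PWS-IC del), over the members (filled circles) and over all genes tested (open squares). Wild-type brain 1 is the lowest at -0.18, and the muscle arrays lie within 0.05 of 0 for the members.

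No member passed the test between genotypes in muscle. The count was 0 of 30 by limma, where 16 of 13645 genes (0.117%) passed. Pdk3 was too dim in muscle to be tested, at 5.64 to 5.95. With array quality weights 3 members passed, Idh1 and Pcx higher and Idh2 lower in the mutants, among 1074 genes higher and 788 lower. At an unadjusted p under 0.05 there were 2 of 30 members, Idh2 and Pdp1, beside 11.9% of all genes. The median difference of the members was 0.01 beside 0.02 over all genes, and 17 of 30 were above 0 beside 54.1% of all genes. The groups did not overlap for 3 of 30 members, beside 12.2% of all genes: Idh3a was higher in every mutant array, and Suclg2 and Got2 were lower. The intervals of several enzymes were narrow. Cs read 13.10, 13.02 and 13.08 in PWS-IC del muscle and 13.22, 13.09, 13.08 and 13.13 in wild-type muscle. These values overlapped, with a difference of -0.07 (95% interval -0.23 to 0.10). Ogdh read 12.41, 12.36 and 12.30 against 12.47, 12.31, 12.44 and 12.43, also with overlap, and differed by -0.05 (-0.23 to 0.12). Pdha1 differed by 0.02 (-0.14 to 0.18) and Mdh2 by 0.00 (-0.16 to 0.17).

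**Figure D3:**
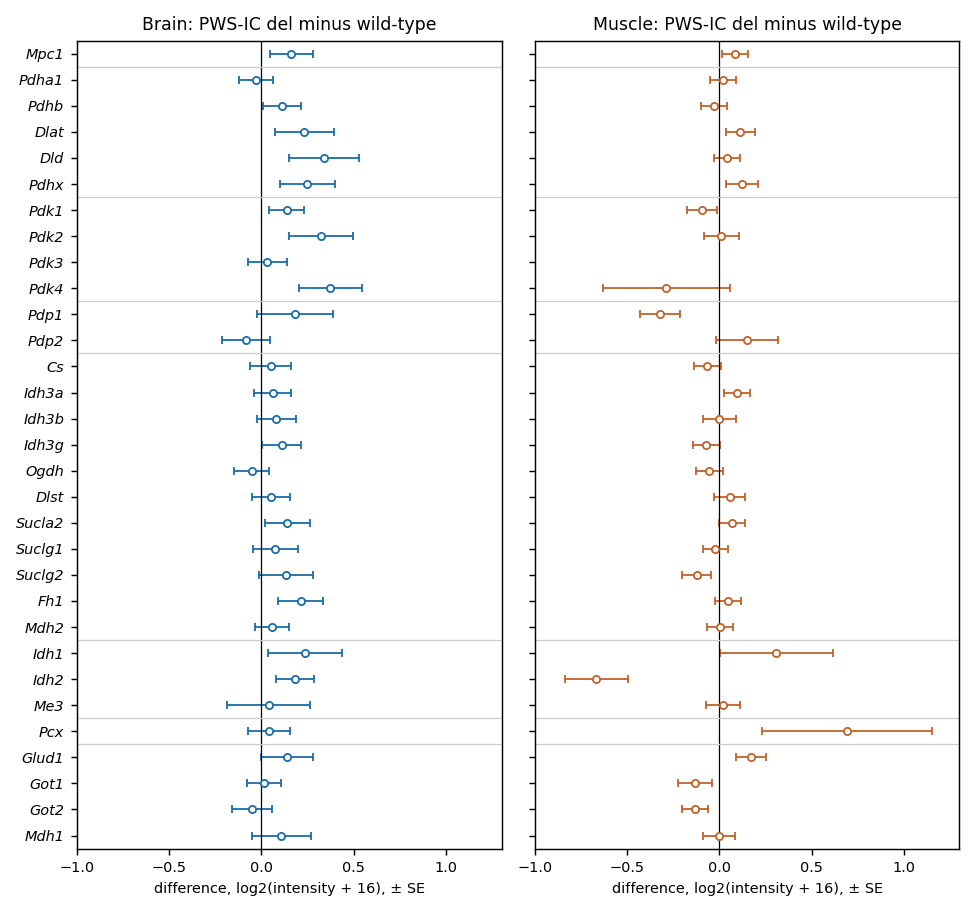
Difference between PWS-IC del and wild-type for each member in brain (left) and muscle (right), in log2(intensity + 16) units with SE, in the role order used for the tissue plot. Open points did not pass the test, and every point is open; Pdk3 was not tested in muscle.

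Idh2 stood out among the members in muscle. It read 11.76, 11.08 and 11.24 in PWS-IC del muscle and 12.17, 11.75, 12.08 and 12.10 in wild-type muscle. Mutant 2 and 3 were low, and the groups met where mutant 1 reached the value of wild-type 2. The difference was -0.67 (SE 0.17, 95% interval -1.05 to -0.28), with an unadjusted p of 0.0040 and an adjusted p of 0.206 by limma. A second, dim probe set of Idh2 differed by -0.16 (SE 0.10). The slow and oxidative fibre genes moved with it in part. The summed intensity of the 12 genes of that list, all measured and none listed at 0, was 50731, 29621 and 31377 in PWS-IC del muscle and 50783, 26661, 61695 and 58029 in wild-type muscle. The highest mutant array and the lowest wild-type array for Idh2 held the same places for this sum. Of the 12 genes, 6 were higher in the mutants and 0 passed the test. By limma 4 of the 12 had an unadjusted p under 0.05, beside 11.9% of all genes. Their part in the difference of Idh2 was not tested.

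The test of whether the genotype difference itself differed between tissues passed 0 of 31 members, where 12 of 14952 genes passed (0.0803%). Idh2 had the smallest p of the members, with a difference of differences (muscle minus brain) of -0.85 (SE 0.21, limma adjusted p = 0.321). Without PWS-IC del muscle 1, the mutant muscle array highest for Idh2, this value was -1.05 and passed (limma adjusted p = 0.045). With all arrays kept and array quality weights it was -1.08 and passed too, so the call depended on the setting.

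**Figure D4:**
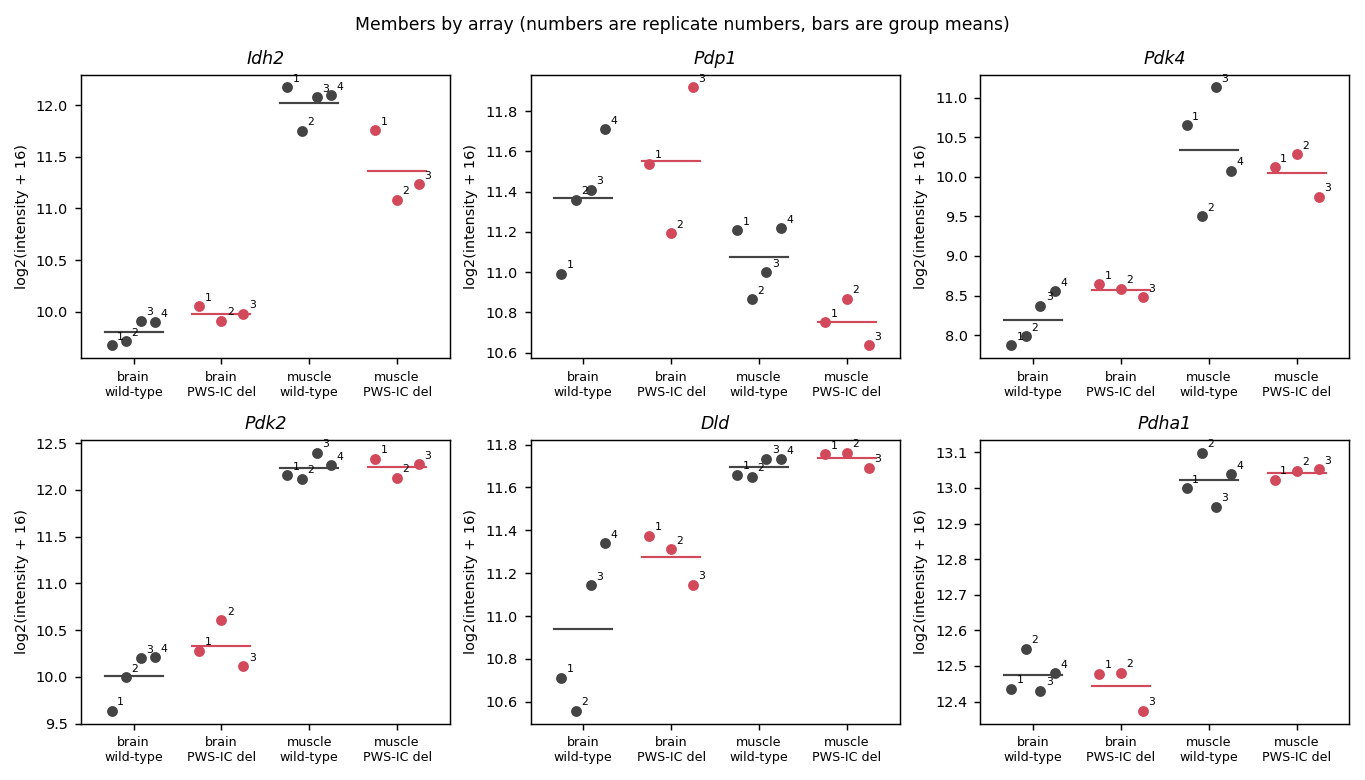
Values of Idh2, Pdp1, Pdk4, Pdk2, Dld and Pdha1 in every array, in log2(intensity + 16) units, by tissue and genotype; numbers beside points are replicate numbers and bars are group means. Idh2 lies between 11.08 and 11.76 in PWS-IC del muscle and between 11.75 and 12.17 in wild-type muscle.

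Pdp1, the calcium-activated phosphatase that turns pyruvate dehydrogenase on, read 10.75, 10.87 and 10.64 in PWS-IC del muscle and 11.21, 10.87, 11 and 11.22 in wild-type muscle. The mutants lay low, and the groups met at mutant 2 and wild-type 2. The difference was -0.32 (SE 0.11, limma adjusted p = 0.315), and a second probe set of Pdp1 gave -0.31. Pdk4, the opposing kinase, read 10.12, 10.29 and 9.75 in PWS-IC del muscle. Its wild-type range enclosed all mutant values, and its difference of -0.29 (SE 0.34) had an interval of -1.07 to 0.50, too wide to exclude a change in either direction. Pdk2 and Pdk1 differed by 0.01 and -0.09, and the second phosphatase, Pdp2, by 0.15. Pdha1 showed unlike values by probe set. Its brighter probe set read 13.02, 13.05 and 13.05 in PWS-IC del muscle and 13.00, 13.10, 12.95 and 13.04 in wild-type muscle, a range of little spread. Its second probe set read 12.27, 12.27 and 12.23 against 11.90, 11.80, 11.88 and 12.21, with no overlap, a difference of 0.31 (SE 0.11) and an adjusted p of 0.312 by limma.

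Pcx read 10.61, 11.18 and 9.28 in PWS-IC del muscle and 9.35, 10.54, 9.57 and 9.20 in wild-type muscle. Mutant 1, mutant 2 and wild-type 2 were high and the other arrays low, so the groups overlapped widely. The difference was 0.69 (SE 0.46, limma adjusted p = 0.588). It was 0.28 without mutant 2 and 1.23 without mutant 3. Idh1, whose product supplies NADPH in the cytosol, followed the same arrays, at 10.27, 10.76 and 9.60 in PWS-IC del muscle and 9.49, 10.55, 9.81 and 9.74 in wild-type muscle, with a difference of 0.31 (SE 0.31). The dim-in-muscle probe set of Idh3b named above read 9.39, 9.84 and 8.42 against 8.53, 9.51, 8.97 and 8.64, again high in those arrays. Fat cell genes, of which 5 of 7 were measured and none was listed at 0, had summed intensities of 21591, 29492 and 8608 in PWS-IC del muscle. In wild-type muscle the sums were 9637, 24907, 13591 and 10174. Adipoq, adiponectin, a fat cell hormone, read 12.58, 13.10 and 10.89 against 10.85, 12.78, 11.59 and 11.17. Of the 5 genes, 4 were higher in the mutants and 0 passed the test. The part of fat cell RNA in the values of Pcx, Idh1 and this Idh3b probe set was not tested.

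**Figure D5:**
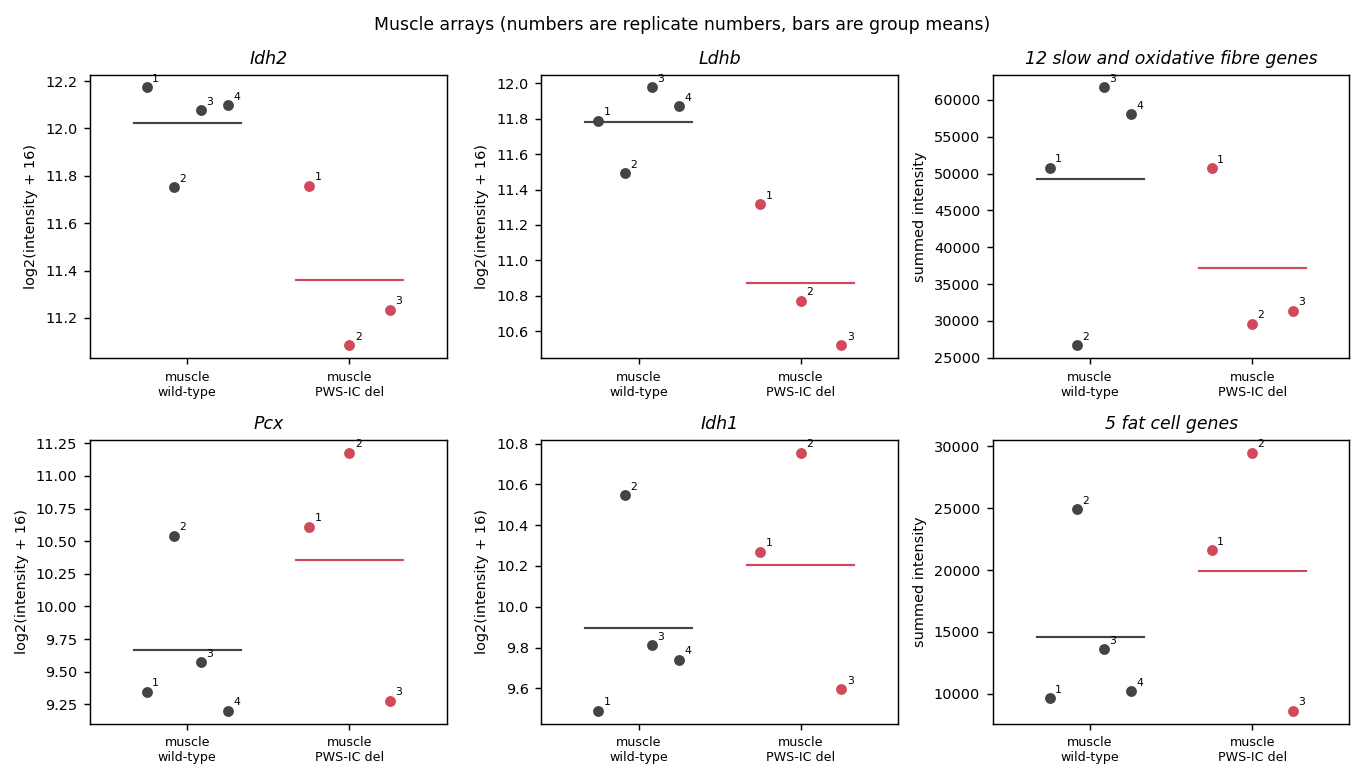
Values in the 7 muscle arrays, with replicate numbers beside the points and bars for group means: Idh2 and Ldhb beside the summed intensity of 12 slow and oxidative fibre genes in the upper panels, Pcx and Idh1 beside that of 5 fat cell genes in the lower panels. Mutant 1, mutant 2 and wild-type 2 are the 3 highest arrays for Pcx and for the fat cell genes.

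The remaining named members lay close together. Glud1 read 11.78, 11.65 and 11.55 in PWS-IC del muscle and 11.58, 11.50, 11.44 and 11.44 in wild-type muscle. The groups overlapped through mutant 3 and wild-type 1, and the difference was 0.17 (SE 0.08, limma adjusted p = 0.463). Got2, the mitochondrial aspartate transaminase, read 12.86, 12.78 and 12.82 against 12.92, 12.96, 12.92 and 13.02. Every mutant array was below every wild-type array by a small margin, with a difference of -0.13 (SE 0.07, limma adjusted p = 0.50). Suclg2 read 11.29, 11.28 and 11.10 against 11.33, 11.34, 11.32 and 11.39. It too was lower in each mutant array, with a difference of -0.12 (SE 0.08, limma adjusted p = 0.570). Idh3a differed by 0.09 in the other direction. Of the 20 members with more than 1 probe set apart from array controls, 11 had probe sets of one sign in brain and 11 in muscle. Tested singly, 0 of 66 member probe sets passed in brain (0.0711% of all) and 0 of 65 in muscle (0.142% of all), and the counts at an unadjusted p under 0.05 were 0 (6.35% of all) and 6 (12.1% of all) by limma.

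Other genes of the pathway gave a similar picture. The list held 51 genes, among them succinate dehydrogenase, lactate dehydrogenase, monocarboxylate transporters, alanine transaminases and proline enzymes, of which 41 were tested in each tissue. In brain 0 rose and 0 fell, where 0.066% of all genes passed. By limma 2 had an unadjusted p under 0.05, Slc16a7 and Prodh, beside 8.2% of all genes. In muscle 0 rose and 0 fell, where 0.117% of all genes passed. By limma 4 had an unadjusted p under 0.05, beside 11.9% of all genes. The monocarboxylate transporter Slc16a7 differed by 0.37 in brain, proline dehydrogenase (Prodh) by 0.24, the alanine transaminase Gpt by 0.22 and the mitochondrial PEP carboxykinase Pck2 by 0.38, each at an adjusted p of 0.556 by limma. In muscle, Ldhb, the heart-type lactate dehydrogenase subunit, read 11.32, 10.77 and 10.52 in PWS-IC del samples and 11.79, 11.49, 11.98 and 11.87 in wild-type samples. The groups did not overlap, and the difference was -0.91 (SE 0.19, limma adjusted p = 0.121). The mitochondrial alanine transaminase Gpt2 differed by 0.40 (SE 0.08, limma adjusted p = 0.111), the transhydrogenase Nnt by -0.50 (SE 0.14, limma adjusted p = 0.236) and Aldh4a1, of proline breakdown, by 0.34. Between wild-type tissues, 24 of 43 tested genes of this list were higher in muscle (22.8% of all genes). Another 12 were lower (59.5% of all genes).

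Of 16 regulators of the pathway, 1 passed in muscle (0.117% of all genes) and 0 of the 15 tested in brain did (0.066%). By limma, 4 in muscle and 3 in brain had an unadjusted p under 0.05, beside 11.9% and 8.2% of all genes. This list was chosen with earlier results of these data known, so its counts are a description only. Esrrg, the estrogen-related receptor gamma, a nuclear receptor that drives oxidative genes, read 8.0, 7.89 and 7.65 in PWS-IC del muscle and 8.80, 8.62, 9.01 and 8.73 in wild-type muscle. Every mutant array was below every wild-type array, and Esrrg fell by 0.94 (SE 0.12, limma adjusted p = 0.036). Its coactivator Ppargc1a differed by -0.35 (SE 0.07, limma adjusted p = 0.118), and the related receptor Esrra by -0.07. The others under an unadjusted p of 0.05 in muscle were Ppara (-0.37, limma adjusted p = 0.290) and Ppargc1b (-0.37, limma adjusted p = 0.296). In brain they were Sirt3 (0.29), Ppara (-0.27) and Nr3c1 (0.22), each at an adjusted p of 0.556 by limma.

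Since a receptor of this family differed in muscle, the promoters of the members were searched for its half-site, AAGGTCA, on both strands. RefSeq windows of GRCm38.p6, from 250 bases before to 50 bases after each start, were at hand for 30 of the 32 members, in 40 windows. The half-site lay in 2 of 30 members (6.67%), Got1 and 1 of the 6 windows of Ogdh, and in 5.38% of the 27025 genes with such a window. The longer form TNAAGGTCA, which contains the half-site, lay in 0 of 30 (1.43% of all genes), the palindromic NRF1 element in 0 (1.07%) and the GABPA element CCGGAAGT in 1, Dlst (4.31%). A match describes letters only. The first lines below show these matches with their flanks, in capitals, from chr11:6292154-6292182 (plus strand), chr19:43524833-43524855 (minus strand) and chr12:85110822-85110851 (plus strand). The last lines show the 250 bases before the start of Idh2, from chr7:80115351-80115600 (minus strand), and of Pdk4, from chr6:5496279-5496528 (minus strand). These members had the smallest p in muscle and in brain, and their windows held no match to the 4 motifs.
Ogdh: ggacacggcgcTGACCTTggtgcctgcgg
Got1: cccagAAGGTCAggaggttgtcc
Dlst: cggccggtctcACTTCCGGttgctgccggg
Idh2: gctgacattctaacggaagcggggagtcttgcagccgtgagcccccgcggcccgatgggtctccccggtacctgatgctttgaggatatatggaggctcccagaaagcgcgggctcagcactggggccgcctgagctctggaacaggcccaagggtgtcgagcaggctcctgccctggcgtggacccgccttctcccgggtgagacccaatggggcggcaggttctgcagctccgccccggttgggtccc
Pdk4: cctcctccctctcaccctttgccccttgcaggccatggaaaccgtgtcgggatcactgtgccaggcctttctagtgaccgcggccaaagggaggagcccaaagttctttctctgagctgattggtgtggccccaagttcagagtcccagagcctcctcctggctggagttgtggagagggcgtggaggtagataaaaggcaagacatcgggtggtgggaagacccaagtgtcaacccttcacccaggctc
Ogdh, Got1 and Dlst, the members with a match, differed between genotypes in muscle by -0.05, -0.13 and 0.06, and did not pass.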

How the data were processed

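RNA of 14 samples was hybridised to 1 array each, from 4 ug of total RNA per the labels' protocols. The deposited values are intensities on a linear scale, 1 per probe set, made with PLIER and the Affymetrix Expression Console per the submitters' processing notes; versions are not given, and neither are background correction or normalization, in the sources used here. Samples were grouped by tissue and genotype from their labels. Values were taken as log2(intensity + 16) of the deposited intensities, which understates changes of dim genes. Each gene was read from its probe set of highest mean, control probe sets left out, and genes under the 0.25 quantile of mean intensity were not tested. limma 3.58.1 in R 4.3.3 (lmFit, eBayes) was run on all genes within each tissue, and on all 14 arrays for comparisons across tissues, 2-sided, with Benjamini-Hochberg adjustment and a threshold of 0.05. The procedure was tested on simulated data. The members and gene lists were chosen with earlier results of these data known. Array values are given for the 6 members of the smallest p in each tissue plus Pdk4, Pdha1, Cs and Ogdh, and for regulators past the threshold. The members of the largest tissue differences, up to 6 each way, and the 4 other pathway genes of the smallest p per tissue are named. The array values of Ldhb and Idh1 and the values of further probe sets were added after they were seen. So were marker values and the regulators that did not pass, among them Ppargc1a and Esrra. Promoters came from RefSeq, GRCm38.p6. Alternatives covered the pseudocount, scaling, filter, probe set rule, trend, array weights, replicate block and left-out arrays.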

Additional observations from a re-analysis of the deposited data

Results flagged for a closer look

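Among the 62 wild-type groups of 4 arrays, 4 held an array far from the other 3 by Dixon's ratio, where chance gives about 1 group in 20. All 4 were in brain. Cs was lowest in wild-type 1, at 11.898, with the next array at 12.158. Idh3b was lowest in wild-type 1, at 12.391, with the next at 12.612. Mdh2, mitochondrial malate dehydrogenase, was highest in wild-type 3, at 13.05, with the next at 12.98. Pdp2 was lowest in wild-type 3, at 7.0316, with the next at 7.3859.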

How the results depend on the processing

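No member passed between genotypes in brain under any of the 21 alternatives. In muscle 0 passed under 18 of 19, and 3 (Idh1, Idh2 and Pcx) with array quality weights, which also called 1074 genes higher and 788 lower. Those weights gave -0.90 for Idh2 and 1.45 for Pcx, with 5 probe sets in muscle and 1 member, Idh2 (-1.08), in the difference of genotype effects; the latter count was 0 to 1 with 1 array left out. The cause was not tested. Median centring moved the member median in muscle to 0.041, and to 0.038 over probe sets. Without wild-type brain 1 and 2 the median difference of effects was 0.0034. For wild-type tissue the member median was 0.98 with quantile normalization, 1.35 with centring, 0.51 with the mean or the most variable probe set and 0.57 without wild-type brain 1 and 2. For PWS-IC del tissue it was 0.94, 1.16, 0.45 with the mean of probe sets and 0.63 with array weights; all genes there split into 6604 higher and 5203 lower with quantile normalization and 6155 and 5393 with centring, against 3156 and 8662. Under at least 1 alternative the sign changed for 19 of 31 members in brain and 12 of 30 in muscle. Among the members with array values given, it reversed in brain for Cs (-0.021 with array weights, -0.015 without wild-type 1 and 2, -0.018 without 1 and 3, -0.016 to 0.091 with 1 array left out), Ogdh (0.022 with centring, 0.036 with the mean and 0.125 with the most variable probe set) and Pdha1 (0.046, 0.127 and 0.282; -0.047 to 0.0061 with 1 array left out). In muscle it reversed for Cs (0.054 and 0.186 by the last probe set rules), Suclg2 (0.050 by the last) and Pdha1 (-0.0042 to 0.047 with 1 array left out). Quantile normalization called 13 genes higher and 33 lower in muscle, and centring 8 and 17. Same-numbered wild-type and mutant arrays deviated with correlations of -0.06, -0.35 and -0.52 in brain and 0.08, 0.52 and 0.01 in muscle, so the numbers were not taken to pair samples. With the replicate block 0 members passed in either tissue, with medians of 0.14 and 0.0064; 3 genes passed in brain and 2 in muscle.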
